A study of Mus musculus with 16 samples.

Results

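The mitochondrial ribosomal protein genes were followed across left ventricles of 16 mice. They were taken from the deposited count table as every entry whose symbol begins with Mrpl or Mrps and a digit, without pseudogenes, and with at least 160 counts summed over the 16 libraries. This gave 78 genes of 24982 entries, 49 named Mrpl and 29 named Mrps. All 78 matching entries met the minimum, so none was left out, and all 78 passed the filter on low counts and were tested. The entry nearest the minimum was Mrps6 with 7538 counts in total, and no entry fell below it.

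Total RNA from the ventricles of C57BL/6 mice was sequenced, 1 library per mouse. One group was Tln2-null. The other was Tln2-null with an added Tln1 knockout in cardiac fibroblasts (CF), called knockout below, and each group held 4 males and 4 females. Talins, the products of Tln1 and Tln2, link integrins to actin. Both groups, controls included, received tamoxifen (5 days) and, after a gap of 2 weeks, an osmotic pump that delivered AngII (angiotensin II, a hormone that raises blood pressure) over 8 weeks. No untreated, wild-type or Tln1-only mice are among these samples. The sources used here do not name the promoter that drove the fibroblast deletion or the ages of the mice.

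Mitochondria carry their own ribosomes, which translate only the few membrane proteins of the respiratory chain and ATP synthase that mitochondrial DNA encodes. Their RNA is made inside the organelle, but all their proteins are encoded in the nucleus, made in the cytosol and imported. The large subunit (mostly Mrpl genes) forms peptide bonds and passes the chain to the inner membrane, and the small subunit (mostly Mrps genes) decodes the messenger. Many of the proteins descend from bacterial ribosomal proteins, and others were acquired by the mitochondrial ribosome. Heart muscle is rich in mitochondria, and inherited faults in several of these genes, MRPL3, MRPL44, MRPS14 and MRPS22 among them, are known causes of human cardiomyopathy.

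Libraries held 11161766 to 19221673 counts. Levels are CPM, counts scaled to library size. A count of 0 allows up to 3 counts, or 0.1513 to 0.2678 CPM by library (counting error alone), and every one of the 78 genes averaged at least 28.3 CPM. No pair of the 120 pairs of libraries was identical. Myh6, the main myosin of adult mouse heart muscle, stood at 18910 CPM or more throughout. Tln1 ranged between 220.9 and 322.8 CPM and Tln2 between 55.57 and 76.84 CPM over the 16 libraries, with no call between the groups (adjusted p = 0.942 and 0.997). Counts of whole genes in whole tissue check little of either deletion. In 4 females (3 of them knockout) Y-linked reads exceeded 1% of the male mean, at up to 2.885%. The clock gene Arntl stood at 28.42 CPM in Tln2-null replicate 8 and 27.14 CPM in knockout replicate 8, against 3.661 to 8.436 CPM elsewhere. The stress gene Hspa1a stood at 85.93 CPM in Tln2-null replicate 5 against at most 8.909 CPM elsewhere.

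Start regions of 6 genes are shown because short motifs were more frequent near the start sites of the 78 genes than near those of other genes. Whether the motifs bear on how levels varied between mice was not tested. RefSeq windows of 300 bases (GRCm38.p6) matched 69 of the 78 genes. The stretch shown runs from 150 bases before each start site through the first 30 transcribed bases. Capitals mark the letters CGCATGCG, the core bound by NRF1, CCGGAAG, bound by ETS factors such as GABPA, and AAGATGGC, bound by YY1, on either strand. NRF1, GABPA and YY1 are known activators of nuclear genes for mitochondrial proteins. Mrpl22 (chr11:58171514-58171693, plus strand) and Mrpl32 (chr13:14613008-14613187, minus strand) are shown for the NRF1 core, Mrpl3 (chr9:105053118-105053297, plus strand) and Mrps12 (chr7:28741792-28741971, minus strand) for the ETS letters, and Mrpl49 (chr19:6057726-6057905, minus strand) for the YY1 letters. Mrps11 (chr7:78782981-78783160, plus strand) is shown because its stretch also holds the start site of Mrpl46 on the other strand.
Mrpl22: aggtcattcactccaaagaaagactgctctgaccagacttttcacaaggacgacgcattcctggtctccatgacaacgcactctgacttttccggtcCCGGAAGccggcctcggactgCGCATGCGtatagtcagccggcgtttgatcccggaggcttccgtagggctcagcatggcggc
Mrpl32: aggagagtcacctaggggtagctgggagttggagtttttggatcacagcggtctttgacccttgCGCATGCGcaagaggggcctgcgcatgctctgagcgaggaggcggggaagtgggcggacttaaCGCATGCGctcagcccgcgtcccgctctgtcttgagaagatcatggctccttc
Mrpl3: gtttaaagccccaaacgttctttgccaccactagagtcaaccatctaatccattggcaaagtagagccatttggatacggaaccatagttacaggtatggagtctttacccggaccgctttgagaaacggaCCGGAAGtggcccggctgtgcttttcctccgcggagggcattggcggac
Mrps12: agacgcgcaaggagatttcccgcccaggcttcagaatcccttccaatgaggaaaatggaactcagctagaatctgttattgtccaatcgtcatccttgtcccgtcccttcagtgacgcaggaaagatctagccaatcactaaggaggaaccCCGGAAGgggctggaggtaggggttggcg
Mrpl49: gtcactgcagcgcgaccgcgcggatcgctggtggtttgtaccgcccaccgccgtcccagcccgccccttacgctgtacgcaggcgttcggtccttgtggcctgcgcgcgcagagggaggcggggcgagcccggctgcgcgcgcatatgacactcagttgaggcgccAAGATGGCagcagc
Mrps11: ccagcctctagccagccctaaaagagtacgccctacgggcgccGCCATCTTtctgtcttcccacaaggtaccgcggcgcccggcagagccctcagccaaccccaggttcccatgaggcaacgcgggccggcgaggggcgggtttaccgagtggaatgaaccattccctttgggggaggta

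The motif counts were taken over the whole 300-base windows, on both strands, and are descriptions with no test. The protein-coding genes set beside the 69 were not matched to them by level. The ETS letters CCGGAAG stood in the windows of 26 of 69 genes (37.7%), against 13.4% of protein-coding genes, and in 8.86% of all 32851 windows. With 1 more letter, CCGGAAGT, which overlaps the shorter form, the share was 17.4% against 5.94%. The YY1 letters AAGATGGC stood in 12 of 69 genes (17.4%) against 3.63%, and in 2.75% of all windows. In Mrpl35, Mrpl37, Mrpl42, Mrpl49, Mrps7, Mrps18a, Mrps24 and Mrps27 they lay within the transcript, on its own strand, 11 to 36 bases from the start site. In Mrpl32, Mrpl36, Mrps11 and Mrps12 they lay before the start site on the other strand. Binding by YY1 was not tested. The NRF1 core CGCATGCG stood in 7 of 69 (10.1%) against 2.89%, and in 1.87% of all windows, the 7 being Mrpl9, Mrpl10, Mrpl17, Mrpl22, Mrpl32, Mrpl39 and Mrps18b. At least 1 of these 3 motifs was present for 38 of 69 genes (55.1%) against 18.3% of protein-coding genes. The GC box GGGCGG (49.3% against 51.0%) and the E-box CACGTG (7.25% against 9.18%) were about as frequent as elsewhere, and the TATA letters TATAAA were found for 7.25% against 14.3%. Base composition was similar, with a median GC content of 58.7% in the genes' windows and 57.0% in those of protein-coding genes.

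A start site close to that of a neighbour on the opposite strand was frequent. Such a neighbour was a protein-coding gene that starts the other way within 1000 bases, or overlaps at its start by up to 200 bases. In the GENCODE M21 annotation, 25 of the 78 genes (32.1%) had such a neighbour, against 7.96% of 20572 protein-coding genes, which were not matched by level. One such pair lies within the family, Mrpl46 and Mrps11 on chromosome 7, whose start sites are 30 bases apart and which supply a protein to each subunit. The other partners had varied roles, from DNA repair (Eme1) to protein folding (Tcp1). Those with a part in translation or in mitochondria included Sars2, the mitochondrial seryl-tRNA synthetase, beside Mrps12 (182 bases), the ribosomal protein gene Fau beside Mrpl49 (182 bases), the mitochondrial DNA helicase gene Twnk beside Mrpl43 (116 bases) and the respiratory subunit gene Ndufb5 beside Mrpl47. The 78 genes were spread over 17 chromosomes with at most 11 on one (chromosome 11), and none lay on the X chromosome or on chromosome 18. Exons of 18 genes overlapped another gene, 16 of them on the opposite strand and 2 on the same strand. Their counts are uncertain to that extent, since the sources used here do not state the strand setting of the counting. The same holds for Mrpl23, Mrpl48 and Mrps36, which have annotated pseudogene copies.

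Per length, transcript levels of the 78 genes spanned 56.4-fold, while mean CPM before division by length ran from 28.32 (Mrps6) to 276.2 (Mrpl42). Levels are CPM per kilobase of the annotated transcript, as mean and SD over 16 libraries, with a median of 46.0 over the genes and quartiles of 25.2 and 76.3. Mrpl42, a large subunit protein acquired by the mitochondrial ribosome, was highest at 415 ± 31.7. It was followed at a distance by Mrpl30 at 190 ± 14.7, Mrps21 at 188 ± 14, Mrpl33 at 180 ± 17.8 and Mrpl12 at 172 ± 16.3. Mrpl42 lay more than 1 SD above Mrpl30, and these next 4 lay within 1 SD of one another, each against its neighbour. At the low end stood Mrps26 at 11 ± 1.09, Mrpl19 at 9.07 ± 0.732, Mrpl47 at 8.72 ± 1.07, Mrps25 at 8.41 ± 0.626 and Mrpl17 at 7.36 ± 0.566. Of the 77 pairs of neighbours in the order, 66 lay within 1 SD of one another, with Mrps26 above Mrpl19 and Mrps25 above Mrpl17 among the 11 that did not. The order depends on transcript lengths, which ran from 418 to 7300 bases: with all annotated exons merged, Mrps17 moved from 24.3 to 8.84 CPM per kilobase and from rank 61 to rank 75. The 5 highest genes had transcripts of 478 (Mrpl33) to 1316 bases (Mrpl12). Those of the 5 lowest had 3364 (Mrpl47) to 7300 bases (Mrpl17). Before division by length, Mrpl17 averaged 53.72 CPM.

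**Figure D1:**
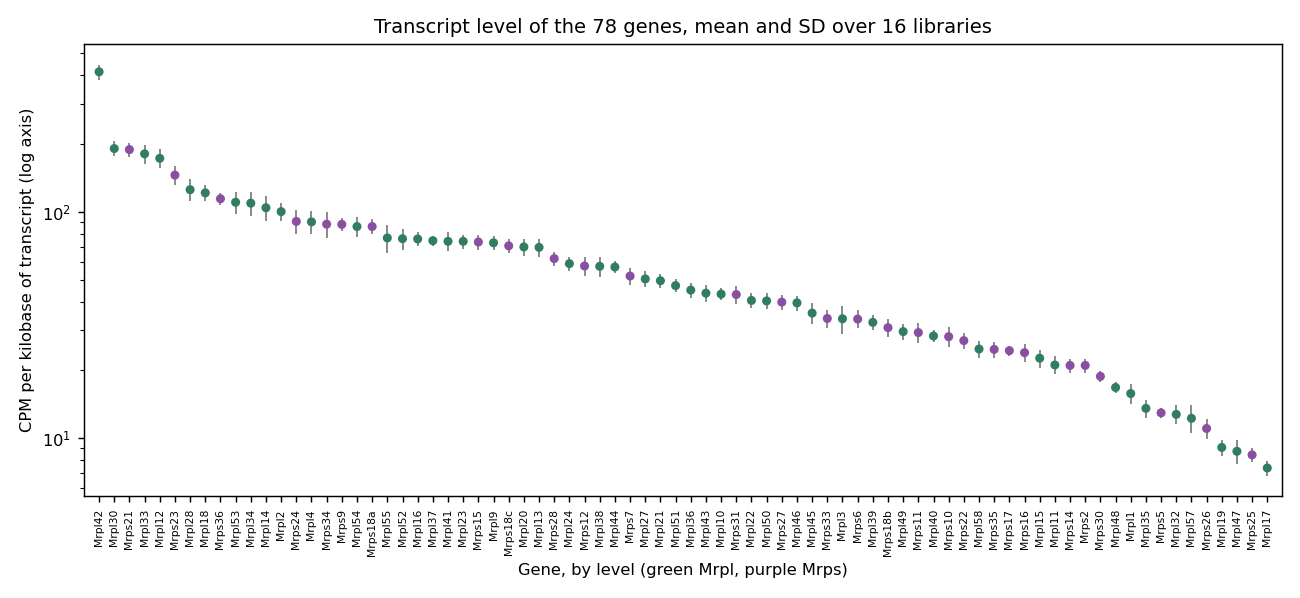
Mean CPM per kilobase of transcript (log axis) of each of the 78 genes, ordered by level, with bars for the SD over 16 libraries. Mrpl42 stands apart at the top, and the other genes form a near-continuous slope down to Mrpl17 with bars that mostly overlap those of their neighbours.

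Genes listed with a bacterial counterpart and genes listed as acquired later covered similar ranges. The lists put Mrpl55 in the group with a counterpart, and Mrps18a, a paralog of Mrps18b and Mrps18c, in the group without. Both placings are open to doubt, and others were not tried. In the large subunit, 30 genes with a bacterial counterpart had a median of 64.2 CPM per kilobase (7.36 to 190), and 21 without had a median of 43.6 (12.2 to 415). In the small subunit, 17 genes with a counterpart had a median of 33.5 (12.9 to 188) and 9 without had 33.7 (8.41 to 145). Mrps36 belongs to neither list: its product is a part of the oxoglutarate dehydrogenase complex, and its level was 114 CPM per kilobase. The 3 paralogs Mrps18a, Mrps18b and Mrps18c, which occupy different places in the ribosome, stood at 85.9, 30.7 and 70.6. The 26 genes with the ETS letters had a median of 45.4 and the 43 without had 43.2. For the NRF1 core the medians were 32.4 (7 genes with) and 48.3 (62 without), and for the YY1 letters 48.5 (12) and 43.2 (57). They were 36.6 (34) and 49.5 (35) for the GC box. For the E-box they were 70.6 (5) and 41.8 (64), and for the TATA letters 39.5 (5) and 44.3 (64). None of these differences was tested.

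From mouse to mouse, most of the 78 transcripts tended to move up and down together. The summed level ran from 5252 CPM in knockout replicate 2 to 6614 CPM in Tln2-null replicate 3. In that lowest library 77 of 78 genes were below their own mean over the 16 libraries (on the log2 scale), all but Mrpl39, and in that highest library 74 were above it, all but Mrpl23, Mrpl47, Mrpl48 and Mrps31. Tln2-null replicates 1 and 7 were also low, with 72 and 71 genes below their means, and Tln2-null replicate 5 and knockout replicate 5 were high, with 71 genes above in each. As a plain share of library totals the lowest was Tln2-null replicate 1 (0.5415%), followed by knockout replicate 2 (0.548%). Which of them is lowest thus depends on the scaling. Among the 6214 genes of at least the mean level of Mrps6, the lowest of the 78, the share above the own mean ran only from 40.4% to 56.0% per library. Of the extreme libraries named here, those of Tln2-null mice were all from males and those of knockout mice all from females. The coefficient of variation of the sum was 10.4% in Tln2-null males and 8.21% in knockout females. It was 2.15% in Tln2-null females and 2.77% in knockout males (n = 4 each).

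**Figure D2:**
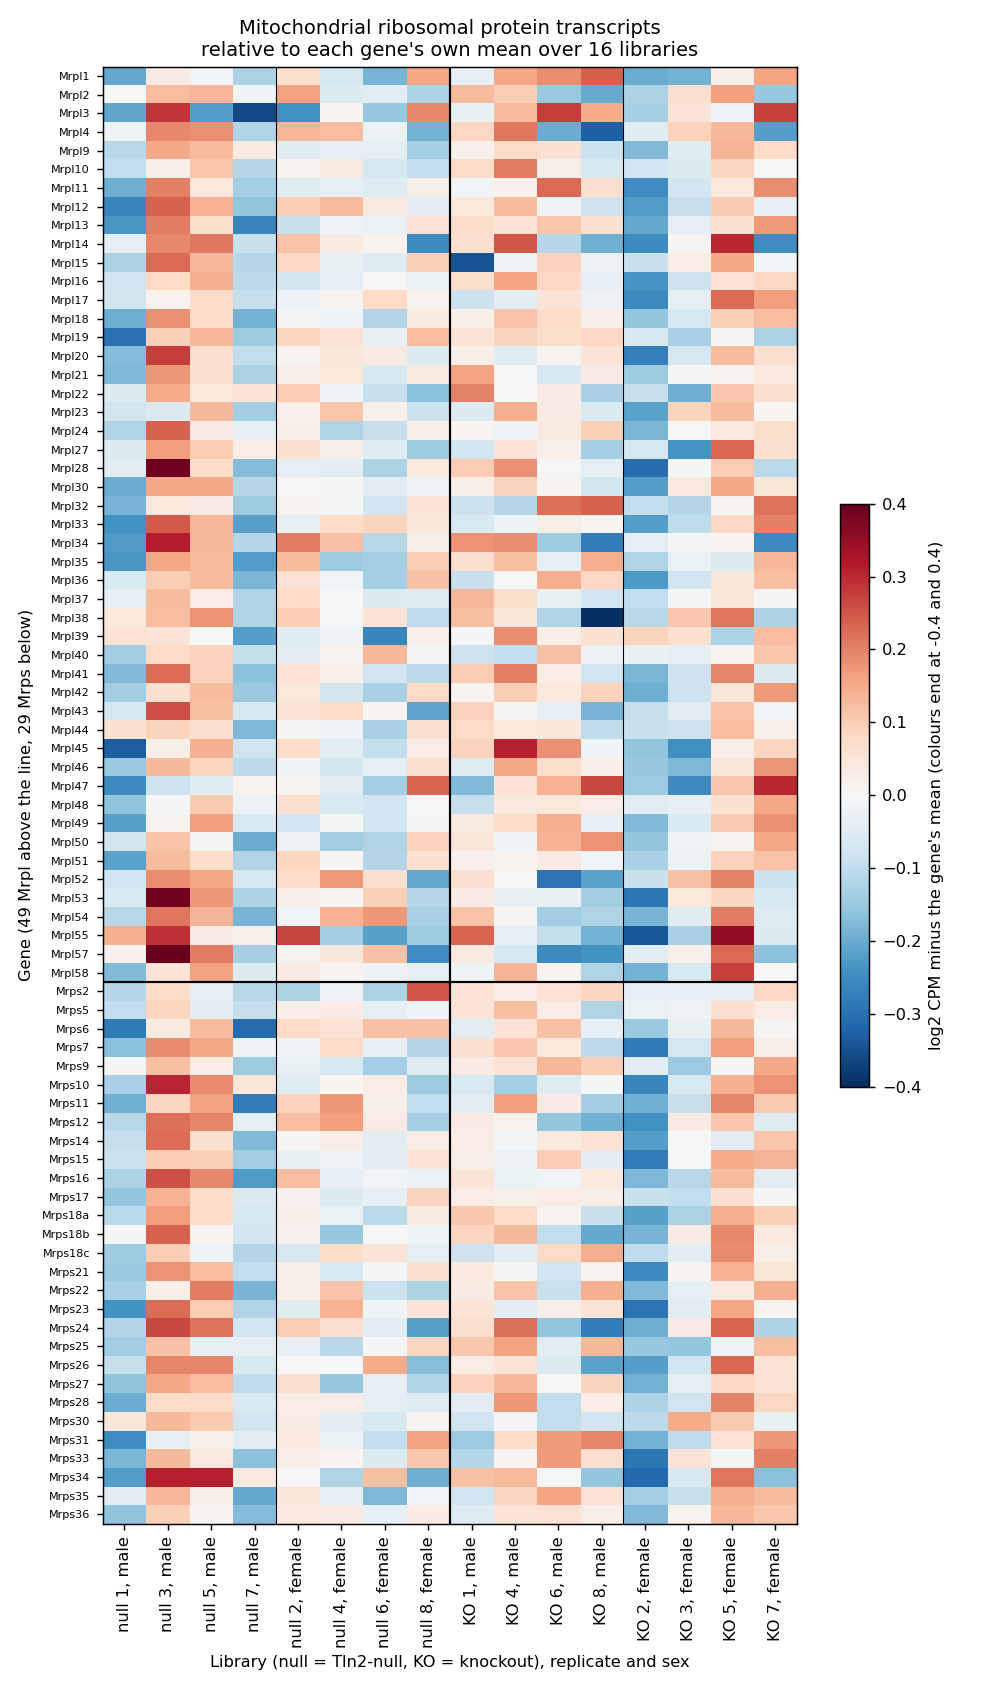
Each cell is the log2 CPM of 1 gene in 1 library minus that gene's mean over 16 libraries, with libraries grouped by genotype and sex and genes by subunit name. Whole columns share a colour, red for Tln2-null replicates 3 and 5 and knockout replicate 5, and blue for Tln2-null replicates 1 and 7 and knockout replicate 2. Such columns lie among the Tln2-null males and the knockout females.

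The same was seen gene by gene. A gene stood on the same side of its mean as the average of the other 77 in a median of 12 of 16 libraries (7 to 15). For 41 of the 78 genes it did so in 12 libraries or more. The least in step were Mrpl39 (7 of 16), Mrps30 (8), Mrpl3 (9), Mrpl47 (9) and Mrps25 (9). The SD of log2 CPM over libraries had a median of 0.12, and of 0.087 once the mean of the other genes was subtracted, and 74 of 78 genes became tighter in this way. These values are descriptions over libraries that share the scaling, and they carry no test.

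Genes named Mrpl and genes named Mrps kept step. The names differ somewhat from the subunits: Mrps18a and Mrps30 are listed with the large subunit, and Mrps36 with neither. The Mrpl sum ran from 3579 to 4482 CPM and the Mrps sum from 1673 to 2132 CPM, yet their ratio stayed between 2.06 and 2.14 in all 16 libraries. Its mean was 2.10 ± 0.0196 in Tln2-null and 2.10 ± 0.0288 in knockout mice (SD, n = 8 each). The library lowest for the 78 genes was also lowest for other genes for mitochondria, and the single highest library was not highest for them. Knockout replicate 2 was also lowest of the 16 in the summed subunits of oxidative phosphorylation (41316 CPM) and in 19 genes for other mitochondrial parts such as the pore and import channels (12748 CPM). Tln2-null replicate 3, highest for the 78 genes, ranked 5 and 9 in those sums. The next libraries did rank high there: knockout replicate 5, at rank 2 for the 78 genes, ranked 2 and 2. Tln2-null replicate 5, at rank 3, ranked 3 and 6. Similar ranks were not limited to genes for mitochondria. In the summed cytosolic ribosomal protein genes, Tln2-null replicate 1 ranked 16 and knockout replicate 2 ranked 15. Tln2-null replicate 5, knockout replicate 5 and Tln2-null replicate 3 ranked 1, 3 and 5 there. Less alike were Tln2-null replicate 7, at rank 7 there and 14 for the 78 genes, and Tln2-null replicate 4, at 2 and 9. Knockout replicate 2 had the lowest sum of 8 ventricular cardiomyocyte markers (40898 CPM, against up to 49016 CPM) and the highest sum of 5 endothelial markers (1228 CPM). Tln2-null replicate 3, highest for the 78 genes, was also on the low side in the cardiomyocyte markers (42944 CPM). The part of cell composition in these sums was not tested, and in bulk tissue fewer muscle cells and less of these transcripts per cell cannot be told apart.

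**Figure D3:**
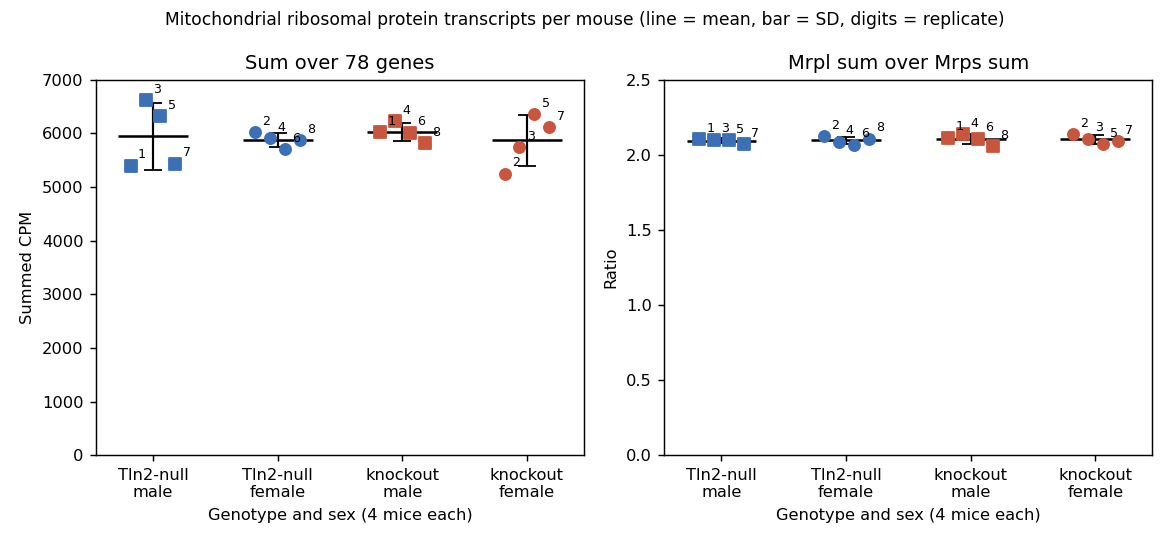
The left panel gives the summed CPM of the 78 genes and the right panel the ratio of the Mrpl sum to the Mrps sum, 1 point per mouse with the mean (line) and SD (bar) of 4 mice. Sums overlap between all 4 groups and spread most in Tln2-null males and knockout females, and the ratios lie between 2.06 and 2.14.

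Single genes varied little. The coefficient of variation of CPM over the 16 mice had a median of 8.37% (4.72% to 14.5%) over the 78 genes and of 9.27% over 6214 genes of at least that same level. Counting error alone would give 1.48% to 4.61%, less than was seen for every gene. Steadiest were Mrps5, a small subunit protein near the messenger entry (57.98 CPM, range 53.3 to 63.01), and Mrps17 (53.09 CPM, range 47.56 to 58.43). The most variable were Mrpl55 (56.24 to 91.04 CPM, 14.5%), Mrpl3 (102.8 to 161 CPM, 14.1%), Mrpl57 (29.13 to 48.0 CPM, 14.1%) and Mrps34 (64.56 to 99.5 CPM, 13.3%).

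Comparing the genotypes asks whether loss of Tln1 from fibroblasts went with a change of these transcripts in the AngII-treated ventricle. The summed level was 5912 ± 414 CPM for Tln2-null and 5946 ± 344 CPM for knockout ventricles (SD, n = 8 each), a difference well within the spread between mice. P-values here measure the spread between these mice. None of the 78 genes passed the test (edgeR quasi-likelihood with sex as a covariate, Benjamini-Hochberg over all genes), and the share called among all 13775 genes was likewise 0%. At an unadjusted p under 0.05 the count was 0 of 78, against 700 of 13775 genes (5.08%). DESeq2 and limma on the deposited normalized values also called 0 of the 78 and had 0 at an unadjusted p under 0.05, and limma-voom called 0 and had 2. The ranges of the groups overlapped for all 78 genes. The share of all genes with such an overlap is not given here, so this is not a result particular to the 78.

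Estimates were small in both directions, with 45 genes higher and 33 lower in the knockout. The median log2 fold change was 0.008, against -0.0027 over all genes, of which 48.8% were higher. Estimates ran from -0.13 for Mrpl57 to 0.16 for Mrpl3, with a median SE of 0.065 (0.0908 over all genes). Over all 95% intervals the outermost bounds were 0.801-fold (Mrpl57) and 1.28-fold (Mrpl3), so larger differences lay outside the interval of every gene. Over the 4 lists by subunit and origin, the counts higher and lower were 16 and 14 (large, bacterial counterpart), 13 and 8 (large, acquired), 9 and 8 (small, bacterial counterpart) and 6 and 3 (small, acquired).

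**Figure D4:**
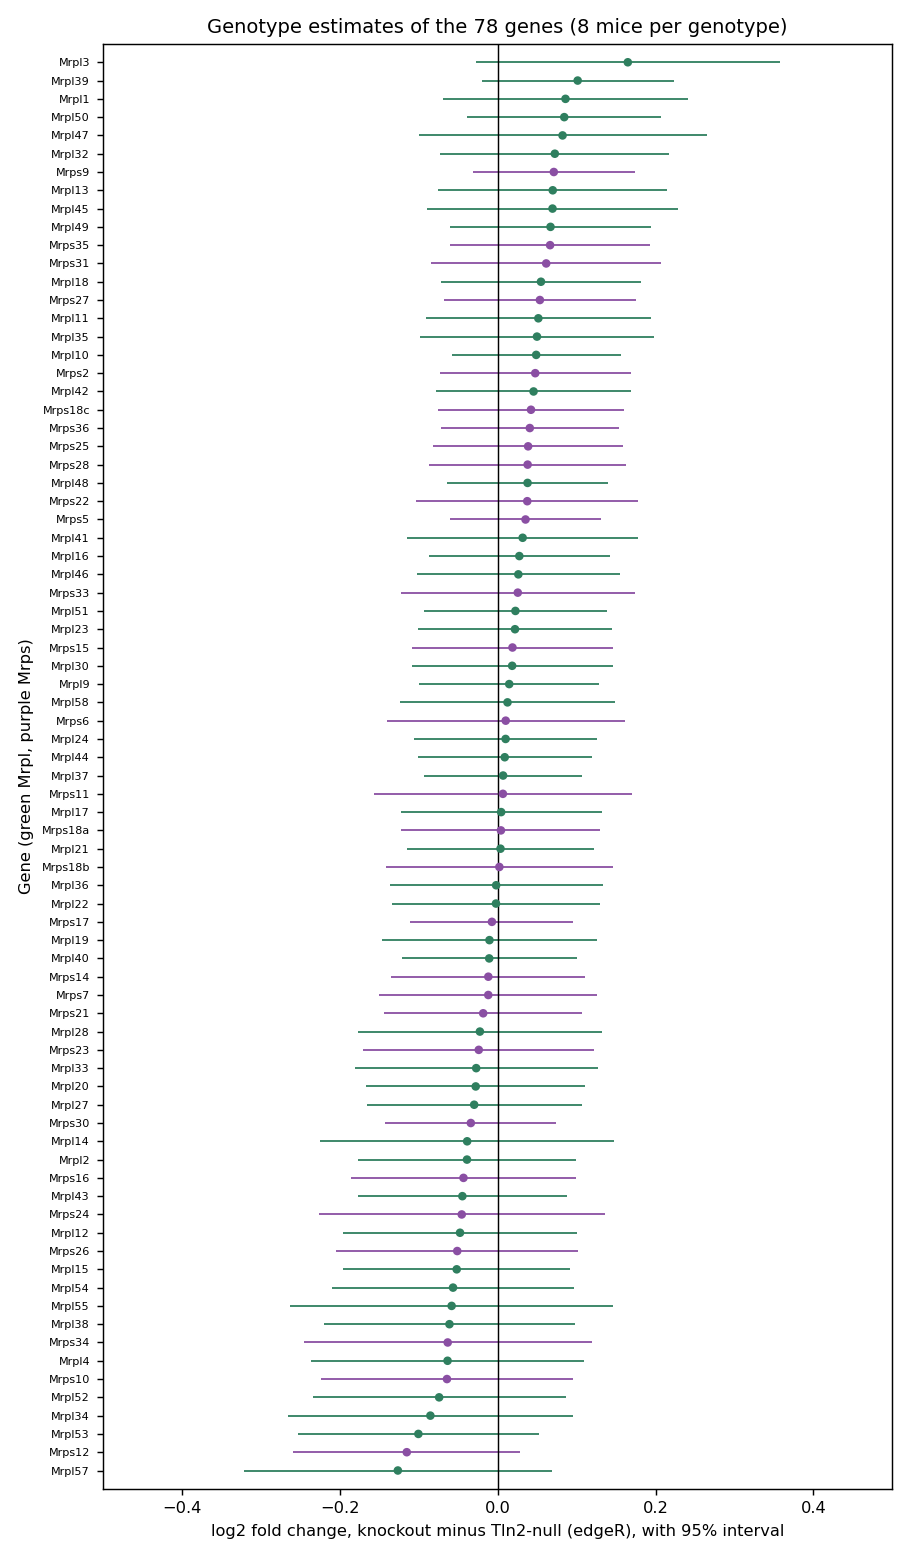
Log2 fold change of each of the 78 genes, knockout minus Tln2-null, with its 95% interval (8 mice per genotype). All intervals cross 0, and that of Mrpl3 reaches highest and that of Mrpl57 lowest.

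None of the 8 genes of lowest p came near a call. Mrpl3, a large subunit protein near the peptidyl transferase centre (chromosome 9, 105053239 to 105079888, plus strand, 10 exons), had a lowest, median and highest level of 102.8, 116.6 and 161 CPM in the Tln2-null group, and of 120.6, 140.5 and 160 CPM in the knockout group. Of the 8 Tln2-null libraries 5 lay below every knockout library, 2 lay among them, and replicate 3 lay just above the highest. The log2 fold change was 0.16 ± 0.09 (SE, edgeR adjusted p = 0.935). Mrpl39, of the large subunit, ran 61.84, 73.72 and 77.07 CPM against 67.83, 77.31 and 84.37 CPM (0.10 ± 0.06). Mrps12, which lies at the decoding site, ran 37.69, 43.65 and 48.12 CPM against 34.9, 40.77 and 44.46 CPM (-0.12 ± 0.07). The ranges of the groups overlap in both genes. Mrpl57, of the large subunit, ran 29.27, 35.49 and 48.0 CPM against 29.13, 33.4 and 40.64 CPM (-0.13 ± 0.09), its top value being that of Tln2-null replicate 3. The other 4 were Mrps9 (0.07 ± 0.05), Mrpl50 (0.08 ± 0.06), Mrpl53 (-0.10 ± 0.07) and Mrpl1 (0.09 ± 0.07), with adjusted p values between 0.935 and 0.942.

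Genes of known role gave the same picture. In the stalk that recruits translation factors, Mrpl12, which also binds the mitochondrial RNA polymerase, stood at 229.6 ± 25.7 against 222.2 ± 17.4 CPM (SD, n = 8 each) and Mrpl10 at 72.49 ± 4.13 against 74.99 ± 5.1 CPM. Mrpl11, at the stalk's base, stood at 62.64 ± 5.32 against 64.96 ± 6.55 CPM. Of the human cardiomyopathy genes beside Mrpl3, Mrpl44 stood at 80.82 ± 5.42 against 81.31 ± 4.79 CPM, Mrps14 at 62.95 ± 5.2 against 62.47 ± 4.11 CPM and Mrps22 at 31.8 ± 3.03 against 32.66 ± 2.57 CPM. At the exit tunnel, where new chains reach the inner membrane, Mrpl23 stood at 50.74 ± 3.39 against 51.51 ± 4.1 CPM and Mrpl45, which anchors the ribosome to the membrane, at 84.42 ± 8.02 against 88.8 ± 10.8 CPM. Mrpl58, which releases stalled chains, stood at 63.88 ± 4.3 against 64.41 ± 6.69 CPM. Each of these differences is smaller than the SD between mice of either group.

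The paralogs and Mrps36 likewise differed by less than 1 SD. Mrps18a stood at 75.82 ± 5.12 against 76.03 ± 6.71 CPM, Mrps18b at 33.13 ± 2.63 against 33.14 ± 3.31 CPM and Mrps18c at 44.4 ± 2.72 against 45.73 ± 3.47 CPM. Mrps36 stood at 79.04 ± 5.19 against 81.29 ± 5.35 CPM. For Mrpl11, Mrpl23, Mrpl44, Mrpl58, Mrps14, Mrps18a and Mrps18b the sign of the estimate turned under at least 1 alternative setting, with values between -0.0928 (Mrps18b, with the 4 females of raised Y-linked reads left out) and 0.0268, and none was called.

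Sums of cell type markers also differed somewhat between the groups. The 7 fibroblast markers, all found in every library, summed to 1150 to 1954 CPM with Tln2-null alone and to 905.7 to 1680 CPM in the knockout (means 1557 and 1236), and the 8 ventricular cardiomyocyte markers to 41840 to 46748 and 40898 to 49016 CPM (means 44010 and 46410). The 5 atrial markers, of which 3 were found in every library, summed to 445.1 to 1922 and 305.8 to 1252 CPM. Of the 5 erythroid markers, 3 were at 0 in all libraries. The part of these shifts in the genotype estimates was not tested.

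The rest of the mitochondrial translation system was read from lists of its other parts, in which no gene passed the genotype test either. Of 15 translation factors 12 were higher and 3 lower in the knockout (median log2 fold change 0.066), led by the elongation factor genes Gfm2 (0.10 ± 0.05) and Gfm1 (0.11 ± 0.06) and the initiation factor gene Mtif2 (0.12 ± 0.06). Of 22 aminoacyl-tRNA synthetase and amidotransferase genes 20 were higher and 2 lower (median 0.038), with Iars2 at 0.12 ± 0.05. Of 27 ribosome assembly and RNA modification genes 18 were higher and 9 lower (0.033), with Ybey, an RNA maturation enzyme, at 0.22 ± 0.10. Of 20 genes for mitochondrial transcription and RNA processing 15 were higher and 5 lower (0.042), and of 7 insertion genes 6 and 1. These counts stand beside 57.7% higher for the 78 genes and 48.8% for all genes, and the difference was not tested.

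The 5 mitochondrial ribosomal proteins with other symbols split 3 higher and 2 lower, with Ptcd3 at 0.12 ± 0.07 (170.6 against 185.7 CPM) and Dap3 at 0.04 ± 0.05. Nuclear subunits of oxidative phosphorylation split 43 higher and 30 lower of 73 (median 0.012), and the 19 genes for other mitochondrial parts 15 and 4 (0.036). Among 12 regulators of nuclear genes for mitochondria, 7 were higher and 5 lower. The receptor gene Esrrg was at 0.16 ± 0.06 (adjusted p = 0.799), the ETS factor gene Gabpa at 0.15 ± 0.06 (adjusted p = 0.916) and the coactivator gene Ppargc1a at 0.20 ± 0.17. Cytosolic ribosomal protein genes leaned the other way, with 6 higher and 77 lower of 83 tested (median -0.05), and none passed.

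Between the sexes none of the 78 genes passed, against a share called of 0.0871% (12 genes) among all genes tested. At an unadjusted p under 0.05 the count was 0 of 78, against 508 of all genes (3.69%). DESeq2, limma-voom and limma on the normalized values called 0 as well, each with 0 at an unadjusted p under 0.05. The summed level was 5983 ± 421 CPM in males and 5874 ± 326 CPM in females (SD, n = 8 each). In females 22 genes were higher and 56 lower than in males, with a median log2 fold change of -0.025 against -0.00079 over all genes. The largest estimate below 0 was that of Mrps34, a small subunit protein (84.55 ± 11.3 CPM in males and 77.04 ± 9.35 CPM in females, -0.13 ± 0.09), and the largest above 0 that of Mrps6 (27.57 ± 3.1 and 29.07 ± 1.88 CPM, 0.08 ± 0.07). Both lie within the spread between mice. Subunits of oxidative phosphorylation split 9 higher and 64 lower in females and cytosolic ribosomal proteins 78 and 5, with none called.

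Within males and within females, again none passed, with 0% of all genes called in either sex by edgeR. Among males 2 of 78 (2.56%) had an unadjusted p under 0.05, against 836 of all genes (6.07%): Mrpl57 with 38.75 ± 7.08 CPM in Tln2-null males and 31.81 ± 3.09 CPM in knockout males (-0.28 ± 0.12), and Mrpl1, a protein of the mobile arm by the exit site, at 50.86 ± 3.8 and 59.0 ± 4.71 CPM (0.21 ± 0.10; SD, n = 4 each; adjusted p = 0.775 for both). DESeq2 also had 2 at that level in males and limma-voom 0. Among females the count was 0 by edgeR, DESeq2 and limma-voom, against 456 of all genes (3.31%) by edgeR. The genotype effect itself did not differ detectably between the sexes, with 0 of 78 called and 0% of all genes. The lowest p was that of Mrpl19 (43.87 ± 6.05 and 47.56 ± 0.57 CPM in males, 47.1 ± 2.09 and 42.81 ± 1.88 CPM in females, interaction -0.25 ± 0.12, adjusted p = 0.98), the only 1 with an unadjusted p under 0.05 by edgeR, against 588 of all genes (4.27%). DESeq2 had 1 gene and limma-voom 3 at that level. Intervals for the interaction were wide, reaching from 0.68-fold to 1.6-fold over the 78 genes.

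The sample titles carry a number from 1 to 18 whose meaning the sources used here do not state. A linear term for it, beside genotype and sex, was called for 6.34% of all genes (874) and for 2 of the 78 (2.56%). At an unadjusted p under 0.05 the shares were 24.2% and 10.3% (8 genes). Mrpl47, a large subunit protein at the exit tunnel (chromosome 3, 32725397 to 32737605, minus strand, 7 exons), rose by 0.027 ± 0.006 log2 per unit of that number (adjusted p = 0.0206). Mrps31, a small subunit protein acquired by the mitochondrial ribosome (chromosome 8, 22411361 to 22429665, plus strand, 7 exons), rose by 0.021 ± 0.005 (adjusted p = 0.0281). Over the whole range these slopes come to 1.38-fold and 1.28-fold.

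For Mrpl47, Tln2-null replicates 1 to 8, in the order of the title number, measured 24.5, 29.37, 27.5, 28.26, 28.2, 26.54, 29.44 and 34.22 CPM. Knockout replicates 1 to 8 measured 25.8, 26.38, 24.47, 30.32, 31.42, 32.12, 35.93 and 35.09 CPM. The 4 highest values were those of the 4 highest title numbers. For Mrps31, the Tln2-null libraries measured 54.6, 66.59, 63.38, 63.62, 65.73, 60.52, 62.89 and 72.47 CPM, and the knockout libraries 58.65, 56.95, 60.42, 68.17, 67.56, 72.99, 73.17 and 74.28 CPM. Its 4 highest values again came from those libraries. For Mrpl3 these libraries held 4 of the 5 highest values (146.3 to 160 CPM), with a slope of 1.18-fold over the range that did not pass (adjusted p = 0.362).

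**Figure D5:**
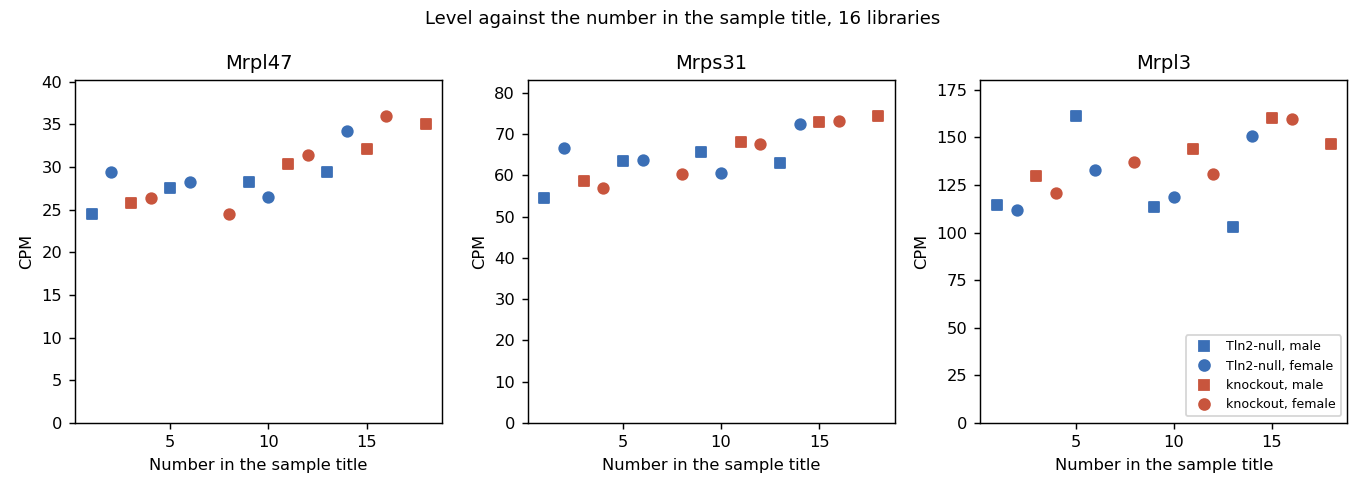
CPM of Mrpl47, Mrps31 and Mrpl3 in each library against the number in the sample title, by genotype (colour) and sex (shape). For Mrpl47 and Mrps31 the 4 libraries of highest number are the highest, and for Mrpl3 they hold 4 of the 5 highest values, beside that of Tln2-null replicate 3 at number 5.

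The title number was not balanced, with a mean of 7.5 in Tln2-null and 10.9 in knockout mice. Both calls were lost without Tln2-null replicate 8 and knockout replicate 8, the libraries with high Arntl (adjusted p = 0.108 and 0.129, slopes 0.024 and 0.019). Leaving out the 4 females with Y-linked reads also ended both (0.0700 and 0.102). Without knockout replicate 8 alone neither was called (0.0604 and 0.0766), and Mrps31 was also lost without Tln2-null replicate 1 or 8 or knockout replicate 1, 2 or 7 (adjusted p between 0.0535 and 0.0751). Calls over all genes fell as well, from 874 to 187 without both libraries of high Arntl and to 229 without knockout replicate 8. The loss is thus not particular to these 2 genes. Exons of Mrpl47 overlap Actl6a and Ndufb5 on the opposite strand, whose own slopes did not pass (0.012 ± 0.005 and 0.0067 ± 0.0058 per unit). In the lists for mitochondrial translation and transcription, the synthetase genes Vars2 and Wars2, the assembly GTPase gene Noa1 and the DNA polymerase gene Polg fell with the title number (-0.024, -0.029, -0.029 and -0.017 per unit). The assembly gene Gtpbp10 (0.020) and the mitochondrial DNA factor gene Tfam (0.022) rose. Calls were 0 higher and 2 lower of 22 synthetase genes, and 1 and 1 of 27 assembly genes. They were 1 and 1 of 20 transcription and RNA processing genes, beside 6.34% of all genes. Library totals did not fall steadily with the number, the highest being 19221673 counts at number 12, but the 4 libraries of highest number held 11161766 to 15015243 counts against 14377696 to 19221673 in the others. The part of depth in these slopes was not tested.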

How the data were processed

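Left ventricular RNA of 16 mice was analysed from the deposited count table (whole counts per gene symbol) and, as an alternative, the deposited normalized signal, which equals counts over 1 size factor per library (all values whole to within 0.001 after multiplication). Per the submitters' processing notes, DRAGEN, DESeq2 and mm10 were used. The sources used here do not state the annotation or the strand setting. In 24 entries the symbol reads as a date. Groups and sexes come from the labels, and replicates are numbered in record order.

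Here edgeR 4.0.16 (R 4.3.3) was run with TMM and filterByExpr (13775 genes), quasi-likelihood tests and Benjamini-Hochberg adjustment over all genes, called under 0.05. Each SE was derived from the estimate and its F statistic. The script was tested on simulated data. The genes, lists and tests were chosen with earlier results of these data known. Named genes were those called, the 8 of lowest genotype p, the 5 highest and 5 lowest per kilobase, the 4 most and 2 least variable, genes of stated role, and up to 3 of lowest p per list. Any other gene was named after its values were seen. Alternatives were DESeq2's size factors, 2 other filters, DESeq2 1.42.0, limma-voom and limma 3.58.1 (pseudocount 1), title number or 1 surrogate variable (sva 3.50.0) as covariate, and libraries left out. Omission of the females with Y-linked reads was chosen after seeing the data.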

Additional observations from a re-analysis of the deposited data

Results flagged for a closer look

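In 39 quantities (35 named genes, 3 sums and the Mrpl to Mrps ratio), each group of 8 mice was searched for 1 library far from the others, by the gap to its neighbour over the group's range. Of 78 such groups 1 stood out, where chance gives about 1 in 20: Mrps18b was at 38.91 CPM in Tln2-null replicate 3, against 29.73 to 33.43 CPM in the other Tln2-null mice. That library had the highest summed level of the 78 genes.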

How the results depend on the processing

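No gene of the 78 was called for genotype, sex, genotype within a sex or the interaction under any of the alternatives run. The median log2 fold change for genotype (0.008) ran from -0.024 to 0.038 over them. The number of genes higher in the knockout (45 of 78) ran from 27 to 57, and the number higher in females (22 of 78) from 6 to 41. Without the 4 females with Y-linked reads, which leaves knockout replicate 2 as the only knockout female, the median within females became -0.162 and that of the interaction -0.189. The number of genes called with the title number (2) was 0 in that setting, 0 without both libraries of high Arntl, and 0 to 3 with 1 library left out. Genotype estimates that changed sign, none of them called, were as follows. Without the females with Y-linked reads they were -0.0137 (Mrpl23), -0.0146 (Mrpl44), -0.0445 (Mrpl58), -0.0479 (Mrps18a) and -0.0928 (Mrps18b). With 1 surrogate variable they were -0.00412 (Mrpl11), -0.0118 (Mrpl58) and -0.0212 (Mrps18a). With the title number as covariate they were -0.00234 (Mrpl58) and -0.00348 (Mrps18a), and by limma-voom -0.00278 (Mrpl58) and 0.00205 (Mrps14). For Mrps18b they were -0.000121 with no filter and -0.0018 by limma on normalized values. With 1 library left out, estimates ran from -0.018 to 0.0284 (Mrpl44), -0.0312 to 0.0444 (Mrpl58), -0.0407 to 0.0268 (Mrps14), -0.0204 to 0.0361 (Mrps18a) and -0.0285 to 0.0439 (Mrps18b). The cause was not tested. Among all genes the genotype test called 0 by edgeR, 17 by DESeq2, 11 by limma-voom, up to 7 with 1 library left out, and 5 without the libraries of high Arntl. The title number test called 874 by edgeR and between 187 and 1380 otherwise. No paired analysis was possible because the replicate numbers were given here in record order. With 8 mice per group the typical SE of 0.065 on the log2 scale limits what could be seen.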
